A study of Ciona robusta with 6 samples.

Results

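In whole embryos of the tunicate Ciona robusta, 11953 gene models were compared between CrBra and CrGFP libraries of the same replicate number. In 32 of them the normalised read count was higher in CrBra by 0.4 or more (log2) in all 3 replicate numbers. The members were chosen on the measured values themselves. A model was kept when its normalised read count was 10 or more in at least 3 of the 6 libraries, and its difference of log2(CrBra + 1) minus log2(CrGFP + 1) had to be 0.4 or higher in each of the 3 replicate numbers. The file lists 15284 models, of which 3331 did not pass the low-value condition, so the 32 members (0.268% of the models tested) are those that could be seen at this depth. They were chosen on this contrast, and every size given below for it is a description without a test.

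CrBra embryos grew from eggs that had received Cas9 protein, tracrRNA and a crRNA against Brachyury before fertilization. CrGFP embryos received the same mix with a crRNA against GFP, a gene that the species does not have, so both groups carry Cas9 and a guide. Each group has 3 samples, numbered 1 to 3, of 50 to 85 pooled whole embryos at Hotta stage 14 that had grown at 21 degrees Celsius. The labels give no clone, strain or editing rate, and an injected embryo can hold a mixture of cut and uncut cells.

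Brachyury is a T-box transcription factor. In ascidians it is expressed in the precursors of the notochord, the rod of cells that stiffens the larval tail, and it activates the genes by which those cells differentiate and intercalate. Notochord precursors share their ancestry in the early embryo with cells of other fates, including neural and endodermal cells, and chordate embryos without Brachyury lack a normal notochord. In whole embryos, more cells of a type and more RNA per cell cannot be told apart.

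The values are read counts after the authors' scaling by a single factor for each library, so they compare a model between libraries but not the levels of different models, whose lengths are not given. The libraries held 13191537 to 16094085 reads, and 1 read is worth 0.847 to 1.12 normalised counts. KH.S1404.1, which is taken here as Brachyury from general knowledge of these gene models and is not named in the file, had 950, 582 and 1058 normalised counts in CrGFP replicates 1, 2 and 3 and 298, 205 and 313 in CrBra. Its CrBra libraries all lay below its CrGFP libraries. The log2 fold change was -1.64 (adjusted p = 0.608 in limma without the replicate number as a block, and 8.89e-05 with it). The labels do not say that the replicates came from separate parents, so p-values measure the spread between these samples.

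The file pairs no identifier with a gene name, and 0 of the 15284 identifiers matched the RefSeq table of the species. No member can therefore be placed in a pathway or cell type, and no marker list could be read in these libraries. The members are described below by their level, size and spread.

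The 32 members had few reads. Their mean value over the 6 libraries ran from 7.30 to 127 normalised counts with a median of 14.9, against a median of 422 over all models tested. A mean as low as that of the median member was found in 4.12% of the tested models. Read counts also scale with the length of a model, so these are depths and not levels of expression. Among the 821 tested models with a mean under 20 there were 20 members (2.44%), with 8 of the 1104 from 20 to under 50 (0.725%), 3 of the 1021 from 50 to under 100 (0.294%) and 1 of the 9007 with a mean of 100 or more. The median member had 10 reads in a CrGFP library and 19 in a CrBra library. In 24 members at least 1 CrGFP library held under 10 reads. The summed value of the 32 was 494 ± 157 normalised counts (SD over 3 libraries) for CrGFP against 1113 ± 465 (SD over 3 libraries) for CrBra, which is 0.00252% to 0.0110% of the normalised total of a library.

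**Figure D1:**
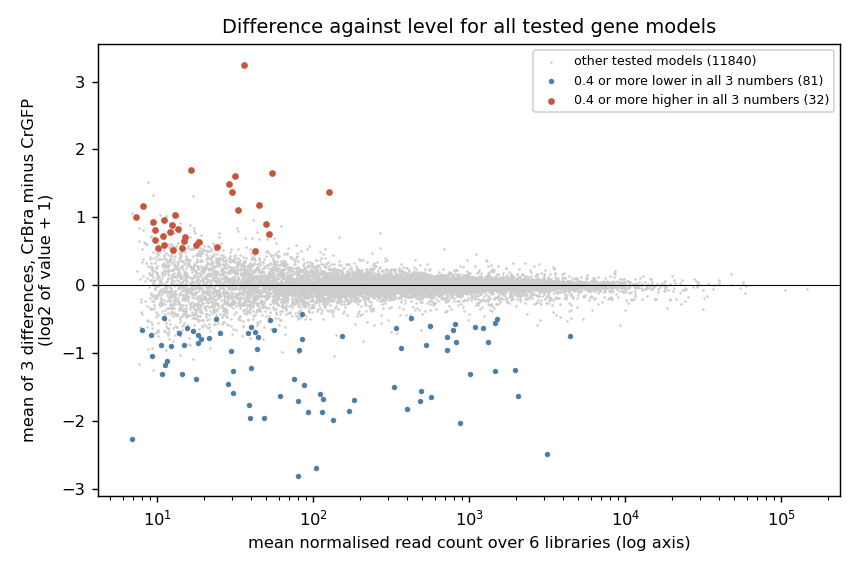
Mean of the 3 differences (log2 of value + 1, CrBra minus CrGFP, vertical axis) against the mean normalised read count over the 6 libraries (log axis) for the 11953 tested gene models, with the 32 members in red and the 81 models that were 0.4 or more lower in all 3 numbers in blue. All members but 1 lie under a mean of 100, where the grey cloud is widest, whereas 35 of the blue points lie at 100 or more.

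The mirrored condition, 0.4 or more lower in all 3 numbers, held for 81 models, 35 of them with a mean of 100 or more. At that level 1 model was higher and 35 were lower. The plot of difference against level shows this asymmetry. Over all tested models the median difference was 0.02, 0.00 and -0.01 in numbers 1, 2 and 3.

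In size the members ran from just past the condition to well beyond it. Their mean difference over the 3 numbers ran from 0.51 to 3.25 with a median of 0.86, and it was 1 or more in 12 members. The smallest of the 3 differences was under 0.5 in 10 members, under 0.6 in 17, and 1 or more in 4. The median difference was similar in the 3 numbers, at 0.78, 0.81 and 0.77. The largest of the 3 differences fell in number 1 in 12 members, in number 2 in 9 and in number 3 in 11.

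**Figure D2:**
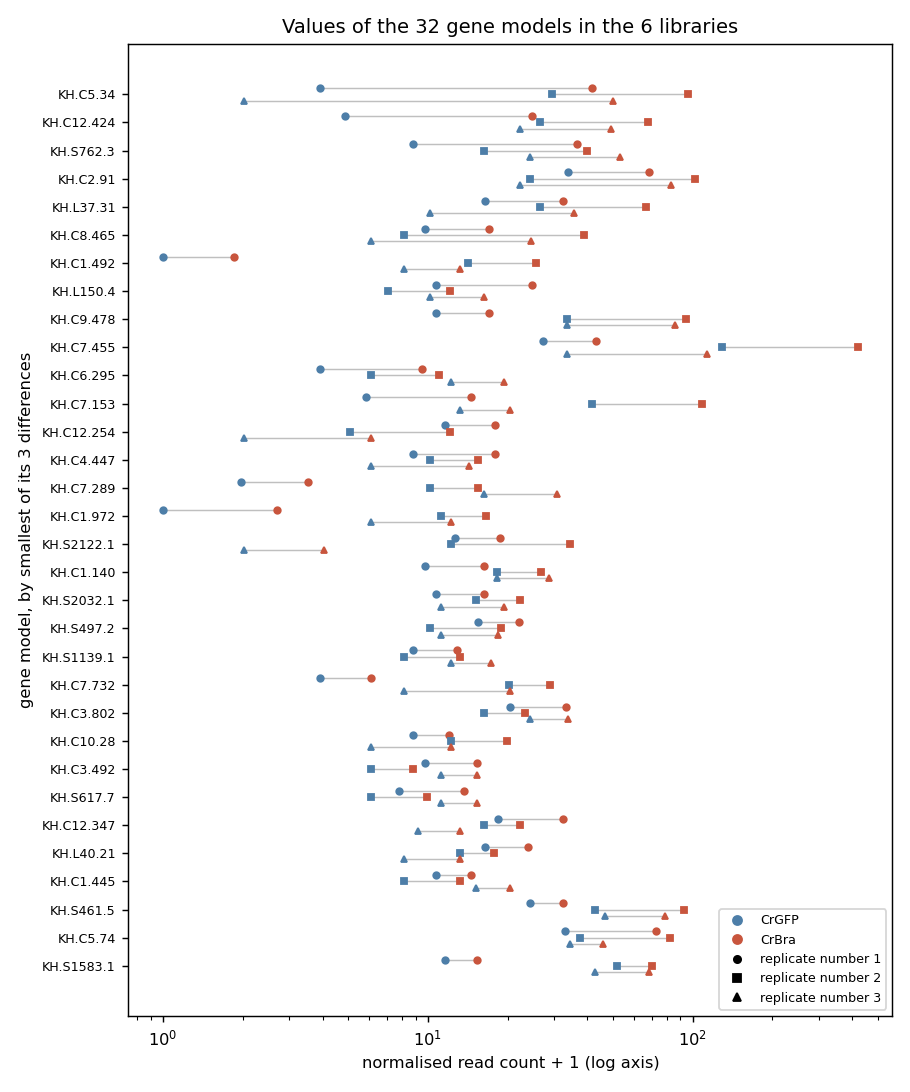
Normalised read count + 1 (log axis) of each of the 32 members in the 6 libraries, with CrGFP in blue, CrBra in red, 1 symbol per replicate number and a grey line joining the libraries of a number. Within every line the red symbol lies to the right, as the choice of members requires, while blue and red symbols of different numbers often overlap, as in KH.C7.153 and KH.S1583.1.

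The member with the largest mean difference, and the largest in numbers 1 and 3, was KH.C5.34. It had 2.91, 28.5 and 1.02 normalised counts in CrGFP replicates 1, 2 and 3 and 40.6, 94.9 and 49.1 in CrBra. All CrBra libraries lay above all CrGFP libraries, but CrGFP replicate 2 stood far above the other CrGFP libraries. The differences were 3.41, 1.70 and 4.63, and the third rests on 1 read in CrGFP against 48 in CrBra, a ratio of 48.3 with a counting interval of 8.26 to 1945.

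KH.C2.91 differed between the guides at a level that was similar in all 3 replicate numbers. It had 32.9, 23.4 and 21.4 normalised counts in CrGFP and 67.7, 102 and 81.9 in CrBra. The groups did not overlap, and the range between the numbers was 1.16-fold once both guides were averaged. The differences were 1.02, 2.07 and 1.89, a mean of 1.66 ± 0.56 (SD, n = 3).

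KH.C12.424 had 3.88, 25.4 and 21.4 normalised counts in CrGFP and 23.7, 67.0 and 48.1 in CrBra. Its groups overlapped, since CrBra replicate 1 lay below CrGFP replicate 2. KH.S762.3 had 7.75, 15.2 and 23.4 in CrGFP and 35.6, 39.1 and 52.2 in CrBra. Here the lowest CrBra library was above the highest CrGFP library, and the mean difference was 1.50 ± 0.50 (SD, n = 3).

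KH.L37.31 had 15.5, 25.4 and 9.16 normalised counts in CrGFP and 31.3, 65.9 and 34.8 in CrBra. KH.C8.465 had 8.72, 7.12 and 5.09 in CrGFP and 16.1, 38.0 and 23.5 in CrBra. In both the groups were apart, and in both the smallest difference was in replicate number 1 (0.97 and 0.81). KH.L150.4 had 9.69, 6.10 and 9.16 in CrGFP and 23.7, 11.2 and 15.3 in CrBra. Its groups were apart too, by 11.2 in the lowest CrBra library against 9.69 in the highest CrGFP library. In KH.C8.465 and KH.L150.4 every CrGFP value was under 10, so the low-value condition required all 3 CrBra values to be 10 or more. Their separation was therefore fixed by the choice of models and is no result.

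KH.C7.455 had the most reads of the members. It had 26.2, 128 and 32.6 normalised counts in CrGFP and 42.3, 420 and 113 in CrBra. Number 2 was the highest in both groups, and CrBra replicates 1 and 3 lay below CrGFP replicate 2. KH.C9.478 had 9.69, 32.5 and 32.6 in CrGFP and 16.1, 93.8 and 84.9 in CrBra. It was lowest in number 1 under both guides, and CrBra replicate 1 lay below CrGFP replicates 2 and 3.

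KH.C1.492 shows how few reads can satisfy the condition. Its normalised counts were 0, 13.2 and 7.12 in CrGFP and 0.847, 24.6 and 12.3 in CrBra. In number 1 this was no read against 1 read, and with the pseudocount of 1 that single read gives a difference of 0.88. A library with 0 reads allows a level of up to 3 reads, so no fold is given for number 1.

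At the edge of the condition, KH.S461.5 had 23.3, 41.7 and 45.8 normalised counts in CrGFP and 31.3, 91.5 and 77.8 in CrBra. KH.C5.74 had 32.0, 36.6 and 33.6 in CrGFP and 72.0, 81.5 and 45.0 in CrBra, and its groups did not overlap. KH.S1583.1 had 10.7, 50.8 and 41.7 in CrGFP and 14.4, 69.2 and 67.5 in CrBra. The smallest differences of these 3 models, the last inside the condition, were 0.415, 0.412 and 0.401.

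The models just outside it followed. KH.L20.21 had 16.5, 8.13 and 4.07 normalised counts in CrGFP and 22.0, 17.9 and 8.19 in CrBra, with a smallest difference of 0.398. KH.C11.650 had 14.5, 13.2 and 19.3 in CrGFP and 20.3, 19.0 and 25.6 in CrBra, with a smallest difference of 0.386. KH.C3.267, at a higher level, had 64.9, 135 and 122 in CrGFP and 99.9, 176 and 273 in CrBra, with a smallest difference of 0.381. Its ratio was beyond counting error in all 3 numbers, which held for 5 of the 32 members.

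The other 19 members had no library above 107 normalised counts, in KH.C7.153, and smallest differences of 0.42 to 0.67. Their mean values ran from 7.30 to 33.0. The groups were apart in 4 of the 19, and in 15 of them no replicate number had a difference beyond counting error, as measured next.

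How far counting error alone reaches was read from the exact binomial (Clopper-Pearson) interval of the ratio of CrBra to CrGFP in each replicate number, at 95%. These intervals cover counting error only, and they use the reads that chose the members, so they describe the depth behind each value and test nothing. Of the 96 combinations of a member and a number, 31 (32.3%) had an interval above a ratio of 1, against 10.8% over all tested models and 4.66% over the 3340 with a mean up to that of the highest member. By member, 16 had no such number, 6 had 1, 5 had 2 and 5 had all 3. Of all tested models 35 (0.293%) were above 1 in all 3 numbers, and of those 3340 models 5 (0.15%) were, all of them members. These 5 were KH.C5.34, KH.C12.424, KH.S762.3, KH.C2.91 and KH.L37.31. KH.C2.91 had ratios of 2.06 (1.36 to 3.17), 4.34 (2.73 to 7.20) and 3.83 (2.34 to 6.52) in numbers 1, 2 and 3. For KH.C8.465 the interval in number 1 was 0.795 to 4.63, so no difference was detectable in number 1 at that depth.

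**Figure D3:**
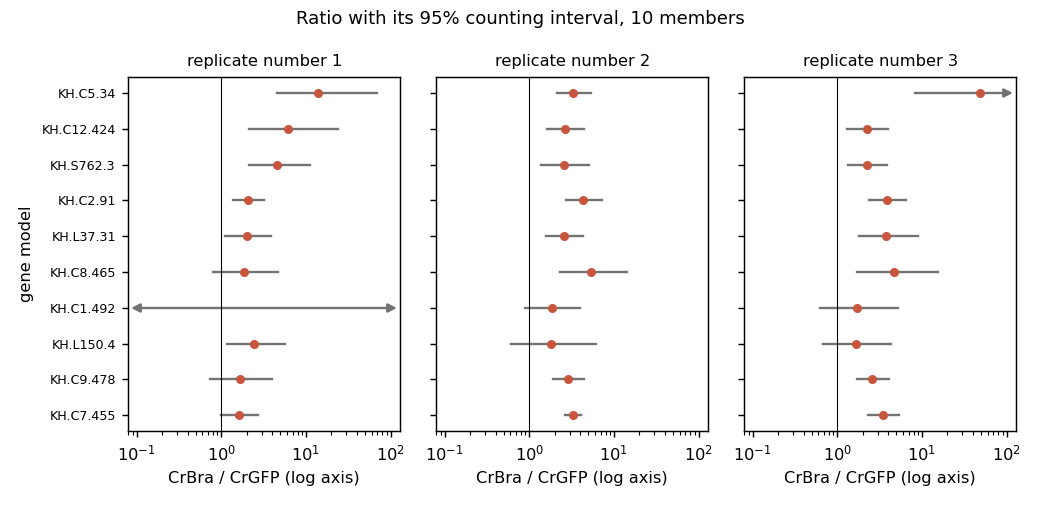
Ratio of CrBra to CrGFP (points, log axis) with its 95% exact counting interval (lines) in each replicate number for the 10 members with the largest smallest difference; arrows mark intervals that run past the axis, and no point is drawn where CrGFP had 0 reads. The intervals of the top 5 members lie above 1 in all 3 numbers, whereas those of KH.C1.492 cross 1 in each; the members were chosen on these reads.

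The count of members was next set beside the counts obtained when the guide labels of a single replicate number are exchanged, which breaks the agreement between numbers but keeps the libraries. With the labels as given 32 models were 0.4 or more higher in all 3 numbers. After the exchange in number 1, 2 or 3 the same condition held for 27, 20 and 25 models, a mean of 24.0. The lower direction gave 21, 27 and 17 after these exchanges against 81 with the labels as given. What the models counted after an exchange hold besides noise was not tested, and 3 exchanges give no p-value.

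The counts were further apart under a tighter condition. A smallest difference of 0.6 was met by 15 models with the labels as given and by 5, 3 and 3 after an exchange. At 0.8 the counts were 6 against 1, 1 and 0, and at 1 they were 4 against 0, 1 and 0. The 4 models at 1 or more were KH.C5.34, KH.C12.424, KH.S762.3 and KH.C2.91. At 0.6 and means from 20 to under 50 there were 6 models against 1, 0 and 0. For means under 20 there were 7 against 4, 3 and 3. In the lower direction at 0.6 the counts over all tested models were 45 against 7, 3 and 2. They were 10 against 3, 1 and 0 for means from 20 to under 50, and 6 against 4, 2 and 2 for means under 20.

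**Figure D4:**
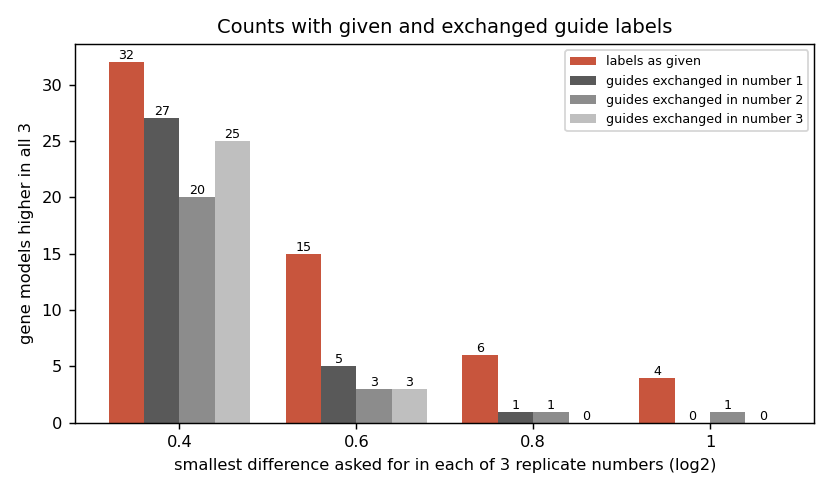
Number of gene models (vertical axis) higher in all 3 replicate numbers by at least the difference on the horizontal axis (log2), with the guide labels as given (red) and with those of number 1, 2 or 3 exchanged (greys). At 0.4 the red bar of 32 stands beside grey bars of 20 to 27, and at 0.6 the red bar of 15 stands beside 3 to 5.

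The same differences can be read in a replicate number whose libraries did not set the difference asked for, although the low-value condition used all 6. The models higher in the number left out are by construction the 32 members again, so the values to read are the share they make up and the models that went the other way. Of the 126 models 0.4 or more higher in numbers 2 and 3, 32 (25.4%) were so in number 1 and 27 (21.4%) were 0.4 or more lower there. The median difference of the 126 in number 1 was 0.06. Of the 106 chosen on numbers 1 and 3, 32 (30.2%) were higher and 20 (18.9%) lower by that size in number 2, with a median of 0.10. For the 127 chosen on numbers 1 and 2, the number 3 values gave 32 (25.2%), 25 (19.7%) and a median of -0.04. About as many of the chosen models lay below 0 as above it in the number left out, with 68 of 126, 60 of 106 and 62 of 127 above 0. With the low-value condition set on the other 4 libraries alone (10 or more in at least 2 of them), an alternative chosen after the data were seen, 38 of 143, 32 of 108 and 31 of 130 were 0.4 or more higher in the number left out and 31, 22 and 28 were 0.4 or more lower.

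The shares can be set beside those of all models up to the level of the highest member, although the 2 sets are not matched in level. The median mean value was 40.7 normalised counts in that wider set. It was 22.4, 18.3 and 18.6 in the models chosen with number 1, 2 and 3 left out. The share at the level of the chosen models was not measured. Among the 3340 tested models with a mean up to that of the highest member, 15.7%, 17.1% and 16.9% were 0.4 or more higher in numbers 1, 2 and 3, whatever their other values. Over all tested models the shares were 5.58%, 5.26% and 5.93%. Of the models chosen as 0.4 or more lower in 2 numbers, 49.7%, 41.8% and 45.3% were lower by that size in the number left out, with medians of -0.40, -0.26 and -0.33. The choice was also made at a difference of 1 in 2 numbers. Then 10 of 14, 6 of 11 and 6 of 12 models were 0.4 or more higher in number 1, 2 and 3. In the same lists 1, 2 and 3 models were 0.4 or more lower, and the higher ones are members by construction. In the mirrored lists 29 of 35, 33 of 35 and 33 of 36 models were 0.4 or more lower in the number left out. The exchanged counts at 0.4 are the models of the 0.4 lists that lay 0.4 or more the other way in the number left out. Both readings therefore use the same differences.

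**Figure D5:**
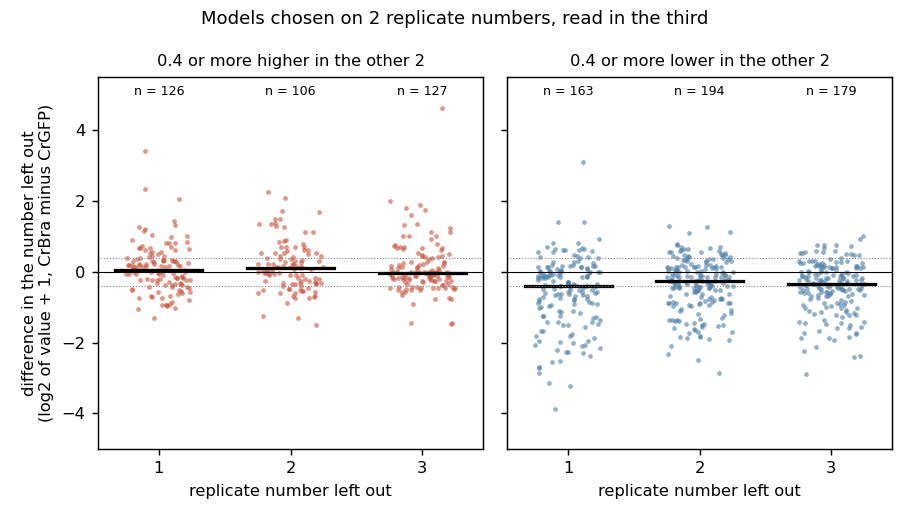
Difference (log2 of value + 1, CrBra minus CrGFP) in the replicate number left out, for models 0.4 or more higher (left) or lower (right) in the other 2 numbers; each point is a model, black bars are medians and dotted lines mark 0.4 and -0.4. The medians on the left are -0.04 to 0.10 and those on the right -0.40 to -0.26.

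In 11 of the 32 members the lowest CrBra library was above the highest CrGFP library. This held for 77 of all tested models (0.644%), and nothing is read from the members' count because they were chosen on this contrast. In members with every CrGFP value under 10, such as KH.C8.465 and KH.L150.4, the low-value condition alone fixed the separation. The other 66 models had smaller differences (median of the mean difference 0.25) at a median mean of 148 normalised counts.

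Across all tested models, limma called 0 models higher in CrBra at an adjusted p under 0.05 (0%) without the replicate number in the fit, with 7 at an unadjusted p under 0.05. In that fit the differences between replicate numbers count as spread within each guide, so a count of 0 does not show that no model differed. Without the block, 0 models were called by edgeR, 0 by limma-voom and 1 by DESeq2, which was KH.C2.91. With the replicate number as a block, limma called 2 (0.0167%), edgeR 3 (0.0251%), DESeq2 3 (0.0251%) and limma-voom 2 (0.0167%). All were members. KH.C2.91 was called by all 4 blocked tools, KH.C7.455 by 3 (not by limma on log values), KH.C5.34 by limma and DESeq2, and KH.C9.478 by edgeR. The blocked limma count rested on which numbers were in the fit: it was 22 without replicate 1, of which 7 were members, 1 without replicate 2 (KH.C5.34) and 12 without replicate 3, of which 5 were members. With no filter on low values it was 0. Nothing further is read from these calls, which use the differences that chose the members.

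The members were not chosen on differences between replicate numbers. The residual spread of the test below comes from the guide differences that chose them, so the test is not independent of the choice. With the guide as a covariate, 15 of the 32 (46.9%) differed among the numbers in limma at an adjusted p under 0.05, and 17 did not pass. Of all tested models 73.4% did so, and of the models with a mean up to that of the highest member 55.1% did. These sets had median means of 422 and 40.7 normalised counts against 14.9 in the members, so they are not matched in level. The range between the numbers, averaged over both guides, was 0.22 to 3.81 on the log2 scale with a median of 1.08. The median over models of that level range was 0.90, and over all tested models it was 0.56. In 20 members the range between numbers was larger than the mean difference between guides. The members were chosen on that difference and the share over all tested models was not counted, so nothing is read from this count.

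The 2 widest ranges were in members with few reads in number 1. KH.C1.492 had a 14.0-fold range, with number 1 the lowest, and KH.C7.289 an 8.46-fold range, also lowest in number 1. KH.C7.153 was highest in number 2 under both guides, at 40.7 normalised counts in CrGFP and 107 in CrBra. KH.S2122.1 was lowest in number 3 under both, at 1.02 and 3.07. The same number was the highest under both guides in 25 members (78.1%), in 77.9% of all tested models and in 69.8% of those with a mean up to that of the highest member.

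The deposited regularized log2 values, which pull weak models towards their mean over all libraries, gave smaller differences. All 32 members were above 0 in each number on that scale, with mean differences of 0.05 to 0.56 and a median of 0.09. These values are made of the counts that chose the members, so their sign is a description and no separate support.

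By the letter that follows KH in the identifier, 21 members (65.6%) carried C, 3 (9.38%) carried L and 8 (25.0%) carried S. Among the tested models with a mean up to that of the highest member the shares were 63.9%, 20.5% and 15.6%. The file does not say what the letters stand for.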

How the data were processed

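Per the file headers, the deposited table holds 2 blocks of 6 columns for the KH2012 gene models. The first is a signal, the counts that the authors normalised to library size. The second holds regularized log2 values that the authors made of the same counts. The submitters' processing notes name TopHat2 2.9.8b and DESeq 1.8.1, and the counter, strand setting and genome build are not given in the sources used here. Antisense or overlapping models could therefore not be told apart. Whole reads were recovered from the first block, since 100% of the values in each library came out as whole reads (tolerance 0.01).

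The main test, limma 3.58.1 (R 4.3.3, trended prior) on log2(value + 1), was fitted over all 11953 models with Benjamini-Hochberg adjustment and a threshold of 0.05. It stands in for the edgeR test planned for raw counts. Alternatives were edgeR 4.0.16 with TMM, DESeq2 1.42.0 and limma-voom on the recovered reads, other pseudocounts, filters and scalings, the replicate block and leaving out libraries. Tests are two-sided. Same-numbered libraries deviated together from their group means (correlations of 0.86, 0.88 and 0.82 over the tested models). The libraries were therefore taken as paired by number in the differences and the blocked fits, whereas the main test leaves the pairing out. The pairing rests on the data, as the labels do not say what a number marks. The fits were run on simulated data with known changes, where only the blocked limma fit had to pass a set condition. The main, unblocked fit was not shown to recover such changes.

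The members and every list and test were chosen with earlier results of these data known. Named are the 10 members with the largest smallest difference, the 3 with the highest mean, the 3 just inside and the 3 just outside the condition, and members that a blocked fit called; KH.C7.153, KH.C7.289 and KH.S2122.1 were named after their values were seen. Marker lists of 7 tissues and processes were fixed by symbol, and 0 of the identifiers carried a symbol, so none was read.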

Additional observations from a re-analysis of the deposited data

How the results depend on the processing

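The number of members depended on how models with few reads were treated. It was 32 as reported, 33 with a pseudocount of 0.5 or TMM scaling, 30 with upper-quartile scaling and 22 at a difference of 0.5. It moved to 20 with a pseudocount of 5, 123 with no filter on low values, 1 with at least 5 CPM in 3 libraries, 1 on the regularized log values and 4 at a difference of 1. Chosen after the data were seen were differences of 0.6 (15) and 0.8 (6) and a mean value of 100 or more (1). On 2 numbers only it was 106 to 127 (126 without replicate 1, 106 without replicate 2). Depth limits these values: 65 of 96 ratios had a counting interval reaching 1 or less, and the spread between samples comes on top of it.

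Models called higher numbered 0 in unblocked limma and in its alternatives, including those without each library, except 1 in DESeq2. With the replicate block the count was 2 in limma, 3 in edgeR, 3 in DESeq2, 2 in limma-voom, 1 with a pseudocount of 0.5, 3 with a pseudocount of 5, 2 with TMM scaling, and 0 with no filter or with 5 CPM. With the block and a replicate number left out it was 1 to 22: 22 without replicate 1 (7 of them members), 1 without replicate 2 and 12 without replicate 3 (5 of them members), with 1 residual degree of freedom. For KH.S1404.1 the log2 fold change was -1.64 in limma and with the replicate block, -1.66 in DESeq2 without the block, -1.65 in blocked edgeR and DESeq2, -1.66 in blocked limma-voom, -1.63 with a pseudocount of 5 and -1.71 to -1.58 with the block and a number left out. It passed the threshold in every blocked fit run and, of the unblocked fits, in DESeq2 alone; the other unblocked fits had adjusted p from 0.529 to 0.834, and those with a single library left out gave -1.90 to -1.45 with adjusted p of 0.831 or more.

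The share of models 0.4 or more higher in the number left out moved from 25.4%, 30.2% and 25.2% to 71.4%, 54.5% and 50.0% when the choice asked for a difference of 1, on 14, 11 and 12 models. Of those models 1, 2 and 3 were 0.4 or more lower there. With a pseudocount of 5 the shares were 23.0%, 29.4% and 23.5%, and with TMM scaling 26.4%, 30.6% and 25.8%. The low-value condition on the other 4 libraries gave 26.6%, 29.6% and 23.8%. All these settings use the same libraries, so the similar shares do not test stability. The 15 members that differed among replicate numbers became 12 to 17 over the alternatives. Of 388 alternative values of the 16 models that the naming rule covers, 386 kept their direction; KH.C7.153, KH.C7.289 and KH.S2122.1 were not included. Both exceptions came without CrGFP replicate 1, in unblocked limma. By their choice the 16 models were higher in CrBra in every replicate number. A change of pseudocount, filter or block, or leaving out a whole number, could therefore hardly reverse them. The count of 386 is no test of stability. Without single libraries KH.C1.492 ran from -0.33 to 1.92 and KH.S1583.1 from -0.16 to 1.23, the highest without CrBra replicate 1. The cause of the other shifts was not tested.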
